A study of Mus musculus with 48 samples.

Results

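The metabotropic glutamate receptors described here are the 6 genes Grm2, Grm3, Grm4, Grm5, Grm7 and Grm8. These genes were chosen by name and not by a rule on their values, but earlier results of these data were known. They are 6 of the 37620 genes in the deposited gene table and 68 of the 247845 exons in the deposited exon table. Messenger RNA was sequenced from the nucleus accumbens shell, a part of the ventral striatum involved in reward, which had been cut out by laser microdissection. The mice were heterogeneous stock-collaborative cross (HS-CC) animals, a genetically mixed stock, bred for high or low ethanol preference (the High and Low lines) and sampled at selection generation 4. Each line gave 12 females and 12 males, with 1 library per mouse. Each direction of selection is 1 population, so that a difference between the lines from selection and one from drift cannot be told apart. The sources used here do not state families or litters, so the p-values cover only the spread among these animals.

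Metabotropic glutamate receptors are receptors with a large extracellular domain that binds glutamate and that signal through G proteins. Group I, of which Grm5 is a member, couples to Gq and phospholipase C, and its receptors sit mostly beside the postsynaptic density of spines. Group II (Grm2, Grm3) and group III (Grm4, Grm7, Grm8) couple to Gi and Go, lower adenylyl cyclase activity, and many of them sit on axon terminals, where they reduce transmitter release. Their messenger RNA in a striatal dissection comes mostly from cells whose bodies lie there, not from the terminals of cortical or thalamic axons. Grm3 is also made by astrocytes. The defining markers of striatal spiny neurons were high in every library: 9 of 9 shared spiny markers passed the filter, and their summed level ran from 59164 to 95685 units. The unit throughout is the normalised count as deposited, of which 14.06 make 1 ppm of the mean column total. In bulk tissue, fewer cells of a type and less RNA per cell cannot be told apart.

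On mm9, the build of the exon table, Grm2 lies on chromosome 9 (listed exon starts from 106546868 to 106558357), Grm3 on chromosome 5 (9485236 to 9725130), Grm4 on chromosome 17 (27559332 to 27649737) and Grm5 on chromosome 7 (94750952 to 95278491). Grm7 and Grm8 are both on chromosome 6 (110595575 to 111516012 and 27225121 to 28084965). Exon numbers below count the listed exons from the 5′ end of each gene. Several receptors have alternative coding exons near the 3′ end that change the cytoplasmic tail, and reads of most of them tell variants apart. The coding bases of 5 such exons are shown from GENCODE M21 transcripts: capitals mark the bases of the named exon, and lower case marks the 12 coding bases before it and, after it, either 12 coding bases (Grm5) or the stop codon. The Grm5 exon adds 32 codons to the tail, and the others end the reading frame.
Grm5 exon 9 (chromosome 7, start 95264703): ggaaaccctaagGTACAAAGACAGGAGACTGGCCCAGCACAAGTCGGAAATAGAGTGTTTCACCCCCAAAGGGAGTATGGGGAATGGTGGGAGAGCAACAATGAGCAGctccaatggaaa
Grm7 exon 12 (chromosome 6, start 111451504): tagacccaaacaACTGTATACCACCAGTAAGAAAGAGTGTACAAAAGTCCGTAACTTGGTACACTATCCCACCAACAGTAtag
Grm7 exon 14 (chromosome 6, start 111516012): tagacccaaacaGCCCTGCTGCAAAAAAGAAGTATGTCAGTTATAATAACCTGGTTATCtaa
Grm4 exon 12 (chromosome 17, start 27562849): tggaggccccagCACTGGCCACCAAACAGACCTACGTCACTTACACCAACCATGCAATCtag
Grm4 exon 13 (chromosome 17, start 27559332): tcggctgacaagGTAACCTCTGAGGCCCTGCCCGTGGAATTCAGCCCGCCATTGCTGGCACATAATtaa
Grm7 exon 14 and Grm4 exon 12 each hold 47 coding bases, of which 28 are identical at the same position. Grm7 exon 14 is also in a transcript that ends its reading frame in exon 12, after the stop codon. Its reads therefore do not tell these Grm7 variants apart.

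Receptor levels did not differ detectably between the selected lines. With limma on log2 values, 43 of the 15350 genes tested differed between High and Low at an adjusted p under 0.05, a share of 0.28%, and 0 of the 6 receptors did. The smallest receptor p before adjustment was 0.278, in Grm7. All 6 passed the filter of 1 ppm in at least 12 libraries.

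Grm5, the group I receptor that couples to calcium release in spiny neurons, had 3044, 3721.5 and 4489 units as its lowest, median and highest value in High mice, against 3111, 3895 and 4268 in Low mice. The lines overlapped over almost their whole range. The log2 difference, High minus Low, was -0.02 ± 0.0393 (SE, n = 24 each, limma adjusted p = 0.928), with a 95% interval from -0.10 to 0.06. Grm5 was the least variable receptor between mice, with a coefficient of variation of 9.12% over 48 mice.

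The group II receptors differed in precision. Grm3 had 484, 689 and 946 units in High mice and 534, 698.5 and 944 units in Low mice, again overlapping throughout. Its log2 difference was -0.02 ± 0.0663 (SE, n = 24 each, limma adjusted p = 0.963), with a 95% interval from -0.15 to 0.11. Grm2, the other group II autoreceptor, had lower counts: High mice had 51, 74.5 and 152 units, against 46, 71 and 218 in Low mice. The highest Grm2 value of all came from 1 Low male, and the other Low mice lay within the High range or just below it. The Grm2 log2 difference was 0.08 ± 0.119 (SE, n = 24 each, limma adjusted p = 0.897), with an interval from -0.16 to 0.32.

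Of the group III receptors, Grm4 had 1027, 1483 and 1900 units in High mice and 862, 1442 and 1950 units in Low mice. The difference was -0.01 ± 0.0748 on the log2 scale (SE, n = 24 each, limma adjusted p = 0.985; 95% interval from -0.16 to 0.14). Grm7, a low-affinity presynaptic receptor, had 645, 927 and 1360 units in High mice against 721, 883.5 and 1095 in Low mice. The top of the High range exceeded that of the Low range, and the difference of 0.07 ± 0.0598 (SE, n = 24 each, limma adjusted p = 0.804; 95% interval from -0.05 to 0.19) did not pass. Grm8 had the lowest counts, with 9, 26 and 67 units in High mice and 10, 27 and 85 units in Low mice. Its difference was -0.07 ± 0.153 (SE, n = 24 each, limma adjusted p = 0.930), with a 95% interval from -0.38 to 0.23, the widest of the 6. Between mice, Grm8 varied by 52.2% and Grm2 by 36.8% (coefficient of variation), against 15.5% to 17.7% for Grm3, Grm4 and Grm7.

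**Figure D1:**
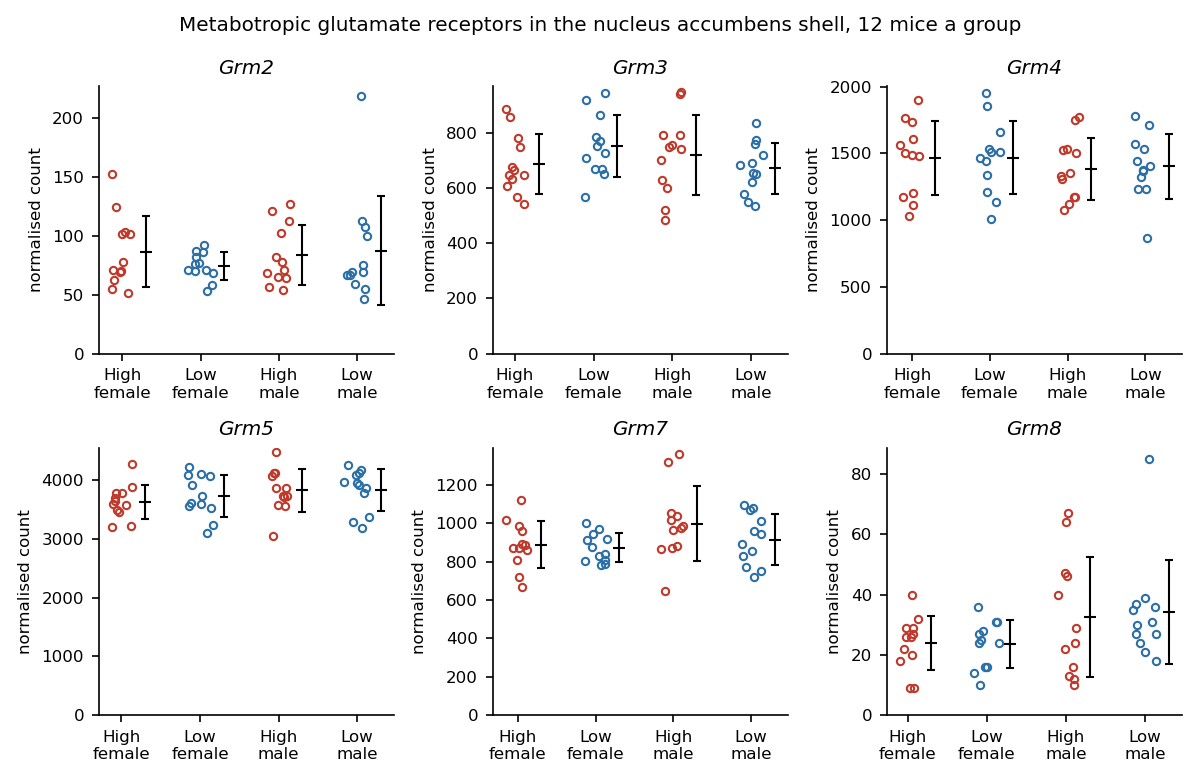
Normalised count (vertical axis, deposited units) of each receptor in every mouse by group; circles are mice, red for High and blue for Low, and the black bar is the group mean with its SD (n = 12). The lines overlap for every receptor, and the highest Grm2 (218) and Grm8 (85) values are from the same Low male.

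Split by gender, none of the receptors passed either. In females 4 genes differed between lines (0.0261% of those tested), and in males 0 did at an adjusted p under 0.05 with limma (0%), although 1064 had an unadjusted p under 0.05. Grm3 had the smallest interaction p: High females had a median of 655.5 units against 739.5 in Low females, whereas High males had 744.5 against 668.5 in Low males. The difference of the line differences was -0.22 ± 0.133 on the log2 scale (SE, n = 12 per group, limma p = 0.108 before adjustment). No gene passed the interaction test after adjustment (0%, 368 at an unadjusted p under 0.05).

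Between genders, averaged over lines, 12 genes differed (0.0782%), and 0 of 6 receptors. Grm8 had the largest difference: females had 9, 25.5 and 40 units as lowest, median and highest value, against 10, 29.5 and 85 in males. 5 males lay above the highest female, while the lower ends of both genders nearly coincided. Female minus male, Grm8 differed by -0.32 ± 0.153 (SE, log2, n = 24 each, limma p = 0.04 before and 0.982 after adjustment). The 3 mice with the highest Grm8, at 85, 67 and 64 units, were all males and were also the 3 with the highest summed pyramidal neuron markers, and without them the difference was -0.16 (limma p = 0.239 before adjustment). Since these mice also had the highest Grm8, leaving them out was bound to shrink the difference. With the pyramidal marker mean as a covariate and all 48 mice kept, it was -0.35 (limma p = 0.00826 before adjustment), and it did not pass after adjustment in any alternative run. Grm7 was lower in females by the next largest amount relative to its error, at -0.11 ± 0.0598 (limma p = 0.0835 before adjustment), with a median of 872.5 units in females and 962.5 in males. The other 4 receptors had unadjusted limma p-values from 0.165 to 0.751.

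**Figure D2:**
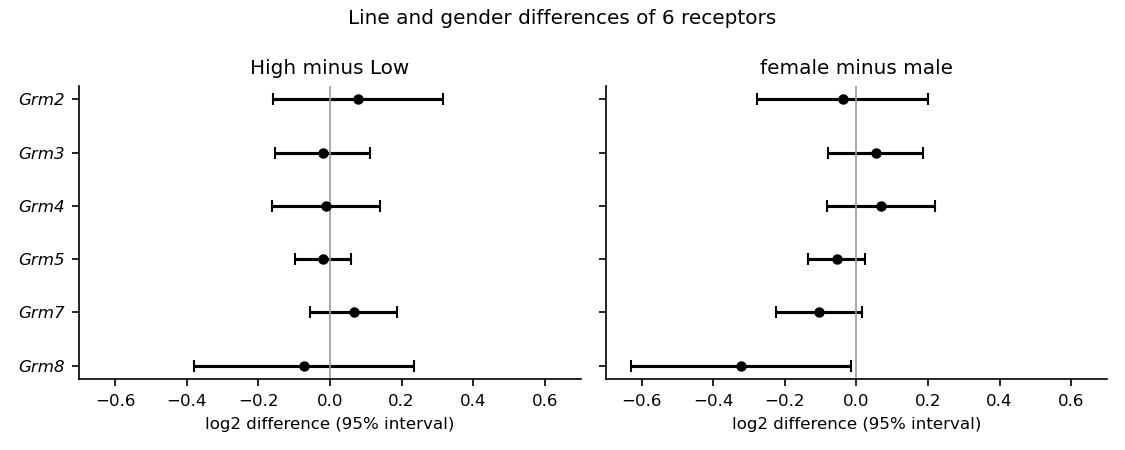
Log2 difference of each receptor (horizontal axis) between lines (left, High minus Low) and genders (right, female minus male); points are limma estimates from 48 mice, bars 95% intervals, and the grey line marks 0. All intervals for the lines include 0; for the genders the Grm8 interval, from -0.63 to -0.02, lies just below it, with an adjusted p of 0.982.

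Mice of one line did not vary detectably more than those of the other in any receptor. Absolute deviations from the group median differed between lines for 9 genes (0.0586%) and for 0 of the 6 receptors. Grm8 came closest: its mean absolute deviation on the log2 scale was 0.482 in High mice and 0.312 in Low mice (limma p = 0.0757 before and 0.998 after adjustment).

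No listed gene of the receptors' pathways passed between lines. Over all genes tested, 1392 of 15350 (9.07%) had an unadjusted limma p under 0.05 between lines. In the lists below, 2 of 17 group I genes, 2 of 21 group II and III genes and 1 of 13 supply and clearance genes did. Grm6, known as the receptor of retinal ON bipolar cells, was listed at 0 to 1 units in High mice and 0 to 2 in Low mice and was not tested. Of 18 listed effectors and partners of group I receptors (Gq, phospholipase C, Homer and Shank scaffolds), 17 were tested and 0 passed in either direction, between lines or genders. The 2 with the smallest line p were Siah1a, an E3 ubiquitin ligase that binds group I receptors, at a log2 difference of 0.12 (unadjusted limma p = 0.0193), and Prkca, protein kinase C alpha, at 0.13 (unadjusted limma p = 0.0233). The median line difference of these 17 was -0.01, against -0.003 over all genes tested.

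Of 22 listed effectors and partners of group II and III receptors, 21 were tested and 0 passed in either direction, with a median line difference of -0.01. Pick1, which encodes a PDZ protein that binds the Grm7 tail, had 767, 882 and 1105 units in High mice and 840, 955.5 and 1370 in Low mice. The ranges overlapped, and the difference of -0.12 ± 0.0431 had a limma p of 0.00883 before and 0.312 after adjustment. Elfn1, which encodes a postsynaptic adhesion protein that recruits Grm7, had 70, 98.5 and 149 units in High mice and 53, 83.5 and 127 in Low mice, a difference of 0.18 ± 0.0754 (limma p = 0.0198 before and 0.411 after adjustment). Of 14 genes of glutamate and N-acetylaspartylglutamate (NAAG) supply and clearance, 13 were tested and 0 passed, with a median of 0.05. Folh1, the glial peptidase that splits NAAG, a peptide that activates Grm3, had 54, 149 and 234 units in High mice against 39, 106 and 227 in Low mice (0.39 ± 0.155, limma p = 0.0147 before and 0.371 after adjustment). Slc1a3, a glial glutamate transporter, differed by 0.11 ± 0.0557 (limma p = 0.0652 before and 0.583 after adjustment).

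The composition of the family depended on which bases were counted. Per kilobase of listed exon, Grm5 was first at 485 ± 44.2 units per kb (SD, n = 48), followed by Grm4 at 286 ± 50.4, Grm3 at 211 ± 34.9 and Grm7 at 197 ± 30.5. Grm2 had 25.1 ± 9.27 and Grm8 6.91 ± 3.59 units per kb. Grm5 was above Grm4 in 48 of 48 mice and Grm4 above Grm3 in 42, whereas Grm3 was above Grm7 in only 32. No test was attached to this order. As a share of the 6 receptors per kb, Grm5 took 39.8% ± 2.67 in High mice and 40.3% ± 2.99 in Low mice, and Grm4 took 23.6% ± 3.98 in High mice and 23.7% ± 4.12 in Low mice (SD, n = 24 each). The shares of Grm3, Grm7, Grm2 and Grm8 over all mice were 17.4%, 16.3%, 2.08% and 0.575%.

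Counted instead in the longest fully coding exon of each gene, which has 936 to 1076 bases, Grm5 stood behind Grm4, Grm3 and Grm7. Grm4 was then first at 259 ± 68.1 units per kb, before Grm3 at 204 ± 44.2, Grm7 at 99.1 ± 33.7, Grm5 at 38.1 ± 32.5, Grm2 at 21.3 ± 9.54 and Grm8 at 7.81 ± 4.99 (SD, n = 48). Grm5 was below Grm3, Grm4 and Grm7 in 48 of 48 mice on this scale. The counted exon of Grm5 lies 4927 bases from the 3′ end of the transcript, against 736 to 1460 bases for the other 5 receptors. The order of the receptors thus depended on the bases counted.

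**Figure D3:**
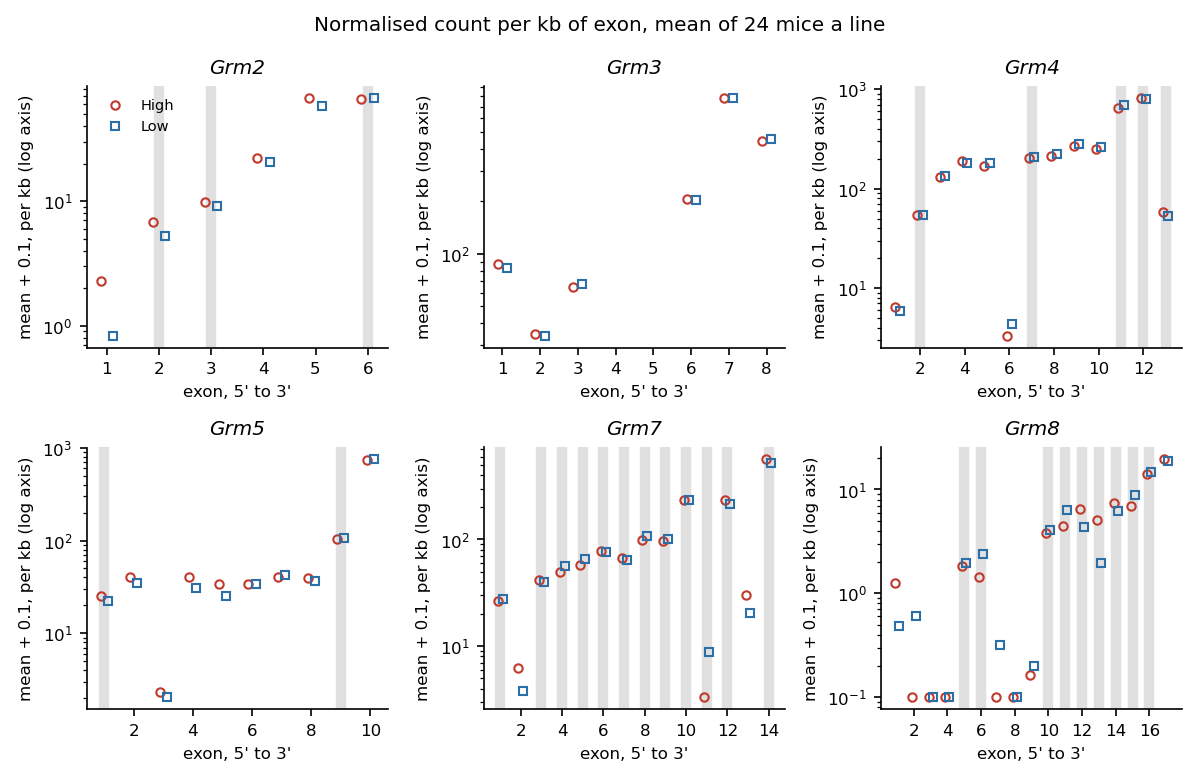
Mean normalised count per kb of each listed exon with a matched length (vertical axis, log scale, 0.1 added) by exon order from 5′ to 3′ (horizontal axis); red circles are the mean of 24 High mice, blue squares of 24 Low mice, and grey bands mark exons in only some coding transcripts. Values near the 3′ end exceed those at the 5′ end in every receptor; in Grm5, exon 10 has 742 units per kb against 38.1 in exon 8.

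The exon profile showed where the signal of each receptor came from. The last exon of Grm5, exon 10, held 97.4% ± 1.90 of its value, 3658 ± 326 units (SD, n = 48). The share in the 3′ exon was 71.3% ± 7.63 for Grm7 (exon 14), 53.4% ± 6.11 for Grm4 (exon 12), 45.5% ± 8.89 for Grm2 (exon 6), 39.3% ± 11.3 for Grm8 (exon 17) and 38.9% ± 5.95 for Grm3 (exon 8). At the 5′ end, exon 1 held 0.478% of Grm5, 2.39% of Grm7, 0.251% of Grm4, 0.106% of Grm2, 0.368% of Grm8 and 0.480% of Grm3. In the annotation, an exon of Grm7 and an exon of Grm2 lie opposite exons of the antisense genes Gm20387 and Gm28111. Without a stated strand setting, reads of the 2 strands could not be told apart there. Grm8 also contains Mir592 in an exon.

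The exons of the alternative tails differed in level. Grm5 exon 9, which is in 1 of 3 annotated coding transcripts, had 10.2 ± 8.00 units, or 106 units per kb, between exon 8 at 38.1 and exon 10 at 742 units per kb (SD over 48 mice for the units). In High mice it had 0, 8 and 43 units as lowest, median and highest value, against 2, 9.5 and 27 in Low mice, and its usage relative to the rest of the gene did not differ (limma diffSplice exon p = 0.154 before adjustment). For Grm7, exon 12, which is in 2 of 4 annotated coding transcripts, had 226 units per kb, close to exon 10 just upstream at 236. Exon 14 had 541 units per kb. It is also in a transcript that ends its reading frame in exon 12, so the 2 levels do not compare variants. In High mice exon 12 had 7, 21.5 and 41 units, against 11, 19 and 35 in Low mice. For Grm4, the separate end in exon 13 took 2.93% ± 0.789 of exons 12 and 13 together in High mice and 2.71% ± 0.797 in Low mice (SD, n = 24 each). Exon 12 was thus the main Grm4 end in every mouse, since exon 13 never exceeded 5.16% of the 2.

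Exon usage between lines was tested with limma's diffSplice, which asks whether an exon changes relative to the other exons of its gene. In 75 of 14702 genes (0.51%) usage differed at an adjusted Simes p under 0.05, and in 0 of the 6 receptors. Grm7 came closest, with a Simes p of 0.00112 before and 0.131 after adjustment, and it rested on 1 weak exon. Grm7 exon 11 (chromosome 6, start 111449695), 233 bases with 35 coding bases in 1 of 4 coding transcripts, had 0, 1 and 3 units in High mice and 0, 2 and 7 in Low mice. High mice thus lay in the lower part of the Low range, at a level of a few units per library. Its relative log2 difference was -0.79 ± 0.201 (SE, n = 24 each, diffSplice exon p = 9.33e-05 before and 0.113 after adjustment over all exons). Exon 13, a noncoding exon, went the other way, with a mean of 4.17 ± 2.35 units in High mice and 2.79 ± 1.53 in Low mice (exon p = 0.0123 before and 1 after adjustment). The gene-level Simes p was 0.128 with weights by exon level, 0.114 with a larger pseudocount of 0.2 ppm, and 0.895 where a filter of 0.5 ppm removed exon 11.

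No other receptor had a Simes p below 0.299 between lines. The exon with the smallest p was exon 15 of Grm8 (0.108), exon 2 of Grm2 (0.114), exon 9 of Grm5 (0.154), exon 13 of Grm4 (0.293) and exon 3 of Grm3 (0.599), all diffSplice p-values before adjustment. Between genders 25 genes differed in usage (0.17%), and for the interaction 27 did (0.184%), in both cases with 0 of 6 receptors. The smallest receptor Simes p was 0.455 between genders, in Grm5, and 0.265 for the interaction, in Grm8.

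How much of a receptor lay outside its 3′ exon moved with a property of the whole library, and the lines overlapped in it. For every library, the share of value in the last exon was taken over 17248 other genes with at least 4 listed exons, and it ran from 44.9% to 58.4%. It averaged 53.2% ± 2.71 in High mice and 52.8% ± 2.48 in Low mice (SD, n = 24 each). The share of Grm4 outside exon 12 ran from 37.5% to 64.4% in High mice and from 35.2% to 59.6% in Low mice. Across 48 mice, after removing group means, it fell with the library share at r = -0.94 (rho = -0.93, permutation p = 1e-05, the smallest the 100000 resamples can give), and at r = -0.94 without the 2 farthest mice. For Grm7, 15.4% to 55.6% lay outside exon 14 in High mice and 16.5% to 45.4% in Low mice, with r = -0.92 (rho = -0.88, permutation p = 1e-05).

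The same relation held for the other 4 receptors. It was r = -0.84 for Grm3 (rho = -0.83), -0.83 for Grm5 (rho = -0.81) and -0.76 for Grm2 (rho = -0.68), each with a permutation p of 1e-05. For Grm8, with few units per library, it was -0.55 (rho = -0.54, permutation p = 3e-05), and without the 2 farthest mice -0.45. The 6 p-values adjusted over these 6 relations were 1.2e-05 for Grm2, Grm3, Grm4, Grm5 and Grm7 and 3e-05 for Grm8. Whether other single genes follow the library share as closely was not counted. Only 0.626% to 11.2% of Grm5 lay outside exon 10, and the highest value came from the High male whose library had the lowest last-exon share of all.

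**Figure D4:**
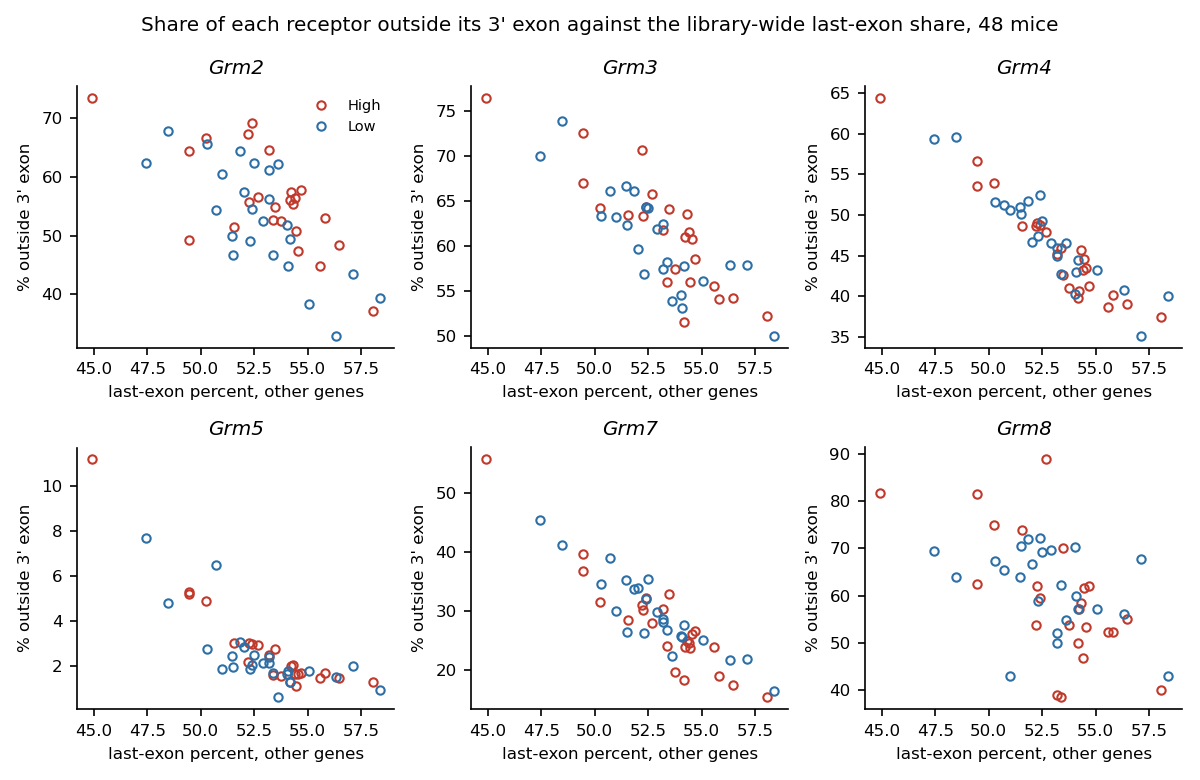
Share of each receptor's value outside its 3′ exon (vertical axis, percent) against the share of value in the last exon over 17248 other genes in the same library (horizontal axis, percent); each circle is 1 of 48 mice, red for High and blue for Low. All 6 receptors slope downwards, Grm4 most tightly (r = -0.94), and both lines lie along the same band.

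The total level of 1 receptor also followed the library share. Grm4 fell with it at r = -0.66 (rho = -0.63, permutation p = 1e-05, 6e-05 adjusted over 6 receptors, and r = -0.65 without the 2 farthest mice), with r from -0.58 to -0.82 within the 4 groups. For the other 5 receptors r lay between -0.30 and 0.10, with adjusted permutation p-values from 0.106 to 0.877. With the library share as a covariate, the Grm4 line difference was 0.01 (limma p = 0.834 before adjustment).

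Across mice, 3 of the 15 receptor pairs varied together, all among Grm3, Grm5 and Grm7. How often pairs of other genes vary together as strongly was not counted. Grm5 and Grm7 correlated at r = 0.60 over 48 mice with group means removed (rho = 0.53, permutation p = 2e-05, adjusted over 15 pairs 0.0003). The relation was 0.52 without the 2 farthest mice and 0.54 to 0.67 within the 4 groups. Grm3 and Grm5 correlated at r = 0.54 (rho = 0.44, adjusted permutation p = 0.00075), with 0.19 within High females and 0.49 to 0.70 within the other groups. Grm3 and Grm7 correlated at r = 0.43 (rho = 0.41, adjusted permutation p = 0.0103), from 0.19 within High females to 0.83 within Low males. Grm4 and Grm5 had the most negative value, r = -0.34 (rho = -0.33, adjusted permutation p = 0.0627), which did not pass. With the library last-exon share regressed out it was -0.48 (adjusted permutation p = 0.00221), while within groups it ran from -0.67 in High females to 0.14 in High males. Grm8 correlated with none of the others, at r from -0.23 to 0.19.

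Receptors also varied with markers of cell types. Each of 12 marker lists was summarised per mouse as the mean of its scaled log2 values, and 19 of 72 receptor-by-list pairs passed at an adjusted permutation p under 0.05. The share of all genes that would pass with the same lists was not counted, so this number cannot be called particular to the receptors. Grm3 varied with astrocyte markers at r = 0.55 (rho = 0.55, adjusted permutation p = 0.00108) and about as strongly with shared spiny neuron markers (r = 0.53, rho = 0.47) and cholinergic interneuron markers (r = 0.48, rho = 0.44). Grm5 varied with markers of direct-pathway spiny neurons, which carry the D1 dopamine receptor (r = 0.54, rho = 0.54, adjusted permutation p = 0.00115), and with shared spiny markers (r = 0.54, rho = 0.47). Its value for indirect-pathway markers, of neurons with the D2 receptor, was 0.41 (rho = 0.34). The adjusted permutation p there was 0.0183 for r but 0.0728 for rho. Grm5 also went with cholinergic interneuron markers (r = 0.44, rho = 0.40) and astrocyte markers (r = 0.41, rho = 0.44), both passing by r and by rho. Whether these values differ from each other was not tested. Grm7 followed the shared spiny markers at r = 0.42, but with rho = 0.27 (adjusted permutation p = 0.167) and r = 0.28 without the 2 farthest mice, so that this relation rests partly on those mice. Grm4 ran against astrocyte markers (r = -0.43, rho = -0.43) and with endothelial and mural markers (r = 0.43, rho = 0.46), each with an adjusted permutation p of 0.0143. Grm4 also fell with the library last-exon share (r = -0.66), and no marker relation was repeated with that share regressed out.

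Grm8 and Grm2 moved with markers of cortical pyramidal neurons. The list has 9 markers, of which 5 were tested, and its summed level ran from 720 to 1057 units in High females and from 621 to 1646 in Low females, and from 572 to 3410 in High males and from 612 to 6119 in Low males. No marker of the list was at 0 in all mice, and Slc17a7, the vesicular glutamate transporter that defines these neurons, reached 3886, 1626 and 1387 units in the 3 highest mice. The mouse ranked 4 by the sum had 961 units of Slc17a7, but High male 6, ranked 8, had only 7. High female 2 also had 7 units, at a list mean of 0.485. In such mice the sum and the mean came from other listed genes. The 3 highest mice, a Low male and 2 High males, ranked 1, 2 and 3 of 48 for Grm8 with 85, 67 and 64 units, and 1, 6 and 3 for Grm2 with 218, 112 and 127 units. Grm8 correlated with the list at r = 0.59 (rho = 0.44, adjusted permutation p = 0.00072, and 0.42 without the 2 farthest mice). Grm2 correlated at r = 0.53 (adjusted permutation p = 0.00405), but rho was 0.31 (adjusted p = 0.0969 by permutation) and r was 0.29 without the 2 farthest mice, so that the relation rests on those mice. Grm8 also rose with septal and diencephalic markers (r = 0.36, rho = 0.40, adjusted permutation p = 0.0446). With GABAergic interneuron markers it had r = 0.37 (adjusted permutation p = 0.0401), but rho was 0.31 (adjusted p = 0.102 by permutation). Grm8 ran against shared spiny markers (r = -0.49, rho = -0.47) and indirect-pathway markers (r = -0.51, rho = -0.44). How far cells from outside the shell contributed to Grm2 and Grm8 was not tested.

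**Figure D5:**
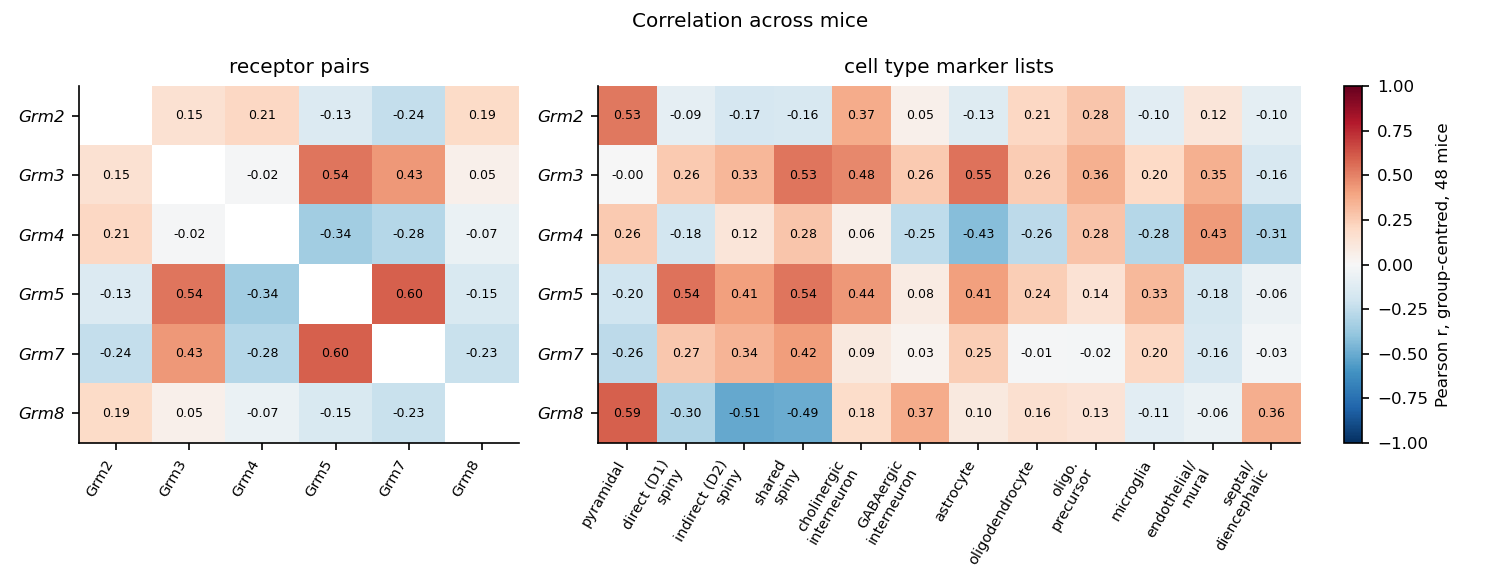
Pearson r across 48 mice, with group means removed, between pairs of receptors (left) and between each receptor and the mean of each cell type marker list (right); red is positive, blue negative, and the number in each cell is r. Grm3, Grm5 and Grm7 form the positive pairs (0.43 to 0.60), and Grm8 has its highest value with pyramidal markers (0.59).

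The genes most like each receptor across mice were taken from about 11861 others with a mean of at least 5 ppm. Grm4 had the closest neighbours: Mark2, which encodes a microtubule-affinity regulating kinase (r = 0.91), Camta2 (0.91) and Ttyh3 (0.90). These 3 genes themselves had r of -0.71, -0.65 and -0.63 with the library last-exon share. Grm5 was closest to Taok1, a kinase gene (r = 0.84), to Mbnl2, which encodes a splicing regulator (0.82), and to Erbin (0.78), which had r of 0.05, 0.07 and 0.13 with the library share. Grm3 was closest to Eps15, which encodes an endocytic adaptor (0.80), Gpm6b (0.80) and Jak1 (0.80).

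Grm7 was closest to Gphn, which encodes gephyrin, the scaffold of inhibitory synapses (r = 0.69), then Flrt3 (0.68). Grm8 was closest to Pter (0.74), Kcnc2, a potassium channel gene (0.72), and Efr3a (0.71), and Grm2 to Stx1a, which encodes syntaxin 1A of the release machinery (0.60), Nptxr (0.59) and Dusp7 (0.55). The most opposed genes were Tmsb15b2 for Grm2 (r = -0.54), Cyth1 for Grm3 (-0.76), ENSMUSG00000089788 for Grm4 (-0.82), Xrcc1 for Grm5 (-0.75), Col11a1 for Grm7 (-0.70) and Pacsin2 for Grm8 (-0.67). These values describe 48 mice that share library effects, and no test was attached to them.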

How the data were processed

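Poly(A) libraries were made from 48 mice with a TruSeq protocol, per the labels. The deposited values are a score: counts per gene and per exon that the authors normalised and rounded to whole numbers, per the table names and values. The submitters' processing notes name CASAVA, FastQC, STAR 2.4.0, R 3.0.2, edgeR 3.4.2 and mm9. Counter, strand setting, annotation release and normalisation method are not stated in the sources used here. Gene column totals ran from 13579559 to 14561911, and depth before scaling is unknown, so no counting interval is given. No 2 libraries were identical. The closest of 1128 pairs had a mean squared difference 9.19 times what counting noise would give if the deposited values were unscaled counts.

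Genes at 1 ppm of the mean column total in at least 12 libraries were tested (15350) with limma 3.58.1 (R 4.3.3) on log2(value + 0.5 ppm), with 4 group means and Benjamini-Hochberg adjustment over all genes. Fold changes of low genes are understated on this scale. Exon usage was tested with diffSplice on exons at 0.1 ppm in at least 12 libraries, with 0.05 ppm added. On simulated data the gene test recovered most planted changes of 1 on the log2 scale, which is larger than any receptor line difference here. None were planted in genes as low as Grm8. The exon test made too many calls among weak exons, so weights by exon level were added afterwards. Correlations used Python 3.11.15, numpy 2.4.6 and 100000 permutations, and figures matplotlib 3.10.9. Exon lengths, symbols (32897 genes matched) and sequences came from GENCODE M21, with exons matched by spacing within each gene and no position converted. Gene values equalled summed exon values within 3 units for the receptors.

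All 6 receptors are named throughout, with the exon of smallest line p, alternative exons, the 3 most alike genes and 1 most opposed, and 2 genes per pathway list. Some results under these rules are not reported here. The receptors and lists were chosen with earlier results of these data known. Chosen after values were seen were exon 12 as the 3′ exon of Grm4, the longest coding exon as a scale, the library last-exon share as a covariate and the alternative without the 3 mice highest in pyramidal markers. Alternatives were other pseudocounts, filters, scalings, weights, covariates and libraries.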

Additional observations from a re-analysis of the deposited data

How the results depend on the processing

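In every alternative run, 0 receptors passed between lines, between genders, for the interaction, for variability or for exon usage. No paired analysis was possible because the replicate numbers were given in order of listing and pair no mice. Over all genes, the 43 line calls became 80 with array weights and 77 with the library last-exon share as covariate; the 4 calls in females became 2 without a filter and 7 with array weights; the 9 variability calls became 28 with squared deviations. For exon usage (limma diffSplice) between lines, 75 became 37 with a 0.2 ppm pseudocount, 34 with a 0.5 ppm filter, 47 without last exons, 43 without first and last exons and 26 with weights by exon level. Between genders, 25 became 8, 11 and 5 with that pseudocount, filter and weighting. For the interaction, 27 became 0, 12, 15, 10 and 1 in the order given for the lines (489 at an unadjusted p under 0.05 where 0 passed).

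Line differences near 0 changed sign. Grm3 gave 0.0073 with array weights. Grm4 gave 0.012 with the last-exon covariate and 0.0013 without the 3 mice high in pyramidal markers. In females, Grm8 gave -0.0043 with a 0.1 ppm pseudocount and -0.036 with the pyramidal covariate, Grm7 -0.0030 with array weights, and Grm4 0.0041 with array weights and 0.071 with the last-exon covariate. In males, Grm2 gave -0.0016 with a 2 ppm pseudocount, -0.028 with array weights, -0.035 without High male 1, -0.069 with the pyramidal covariate and -0.014 with the last-exon covariate. Grm5 in males gave 0.00074, 0.0053 and 0.0067 with TMM factors, quantile normalisation and the pyramidal covariate. Without the 3 mice, Grm4 gave 0.0080 in males and -0.013 for the interaction, and the Grm2 gender difference was 0.078. Their unadjusted limma p-values ran from 0.394 upwards; the cause was not tested.

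The Grm8 gender difference ran from -0.38 to -0.16 over its 10 alternatives, with p = 0.00826 before adjustment at the smallest, with the pyramidal covariate (limma). It did not pass the 5 ppm filter. Receptor pairs past the threshold went to 5 with quantile normalisation, which added Grm4 with Grm5 (r = -0.42) and with Grm7 (r = -0.36). Grm2 with Grm8 turned to r = -0.18 with the pyramidal mean regressed out, and Grm3 with Grm8 to -0.00012 with the last-exon share regressed out. With 2 ppm added, Grm8 with septal and diencephalic markers no longer passed (r = 0.33). Shares in the longest coding exon were 41.3% for Grm4, 32.9% for Grm3, 5.54% for Grm5, 3.41% for Grm2 and 1.26% for Grm8. Low values limit Grm2, Grm8 and single weak exons most.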
